A study of Mus musculus with 8 samples.

Results

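The PBAF and non-canonical BAF specific subunits are the proteins that tell these 2 SWI/SNF remodelers apart from canonical BAF. Their 7 genes were taken by symbol, through RefSeq's symbols for the table's Entrez gene IDs, from the 21058 genes of the count table, 4 for PBAF (*Arid2*, *Pbrm1*, *Brd7* and *Phf10*) and 3 for non-canonical BAF (*Brd9*, *Bicra* and *Bicral*). All 7 passed the minimum of 10 counts summed over the 8 libraries. Their RNA was compared in pachytene spermatocytes purified by Sta-Put sedimentation, with 4 libraries from *Arid1a* WT mice and 4 from *Arid1a* cKO mice. Males of the cKO group carried *Stra8-Cre*, a transgene whose promoter is active in spermatogonia, and were homozygous for the floxed allele (*Arid1a* fl/fl with *Stra8-Cre* Tg/0). *Arid1a* WT males were *Arid1a* fl/fl or *Arid1a* fl/+ without the transgene, and the floxed allele had been kept on the CD1 background. Each purification pooled testes of several adult males, and the study describes inefficient Cre activity, with some cKO pachytene spermatocytes that still held ARID1A. The labels speak of biological replicates and the methods of extraction in quadruplicate, but neither ties a library to animals or to a purification, so a p-value here measures the spread between these libraries.

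SWI/SNF remodelers use the energy of ATP, through BRG1 or BRM, to slide or evict nucleosomes. Canonical BAF carries ARID1A or ARID1B. PBAF carries ARID2 in that place, together with the polybromo protein PBRM1, the bromodomain protein BRD7 and the PHD finger protein PHF10. Non-canonical BAF lacks an ARID subunit and is built around BRD9, a paralog of BRD7, with either BICRA or its paralog BICRAL. PBAF and BAF share BRG1, and PBAF is known to be needed for the meiotic divisions of male mice. How RNA of the other remodelers stood when *Arid1a* was depleted is the question that the comparison of these genes addresses.

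Libraries held 15850961 to 22044507 estimated counts. *Arid1a* was at 105, 128, 121 and 98.8 CPM (counts scaled to a common library total, with TMM factors) in the WT libraries and at 76.4, 81.0, 82.9 and 78.3 CPM in the cKO libraries. Every library labelled cKO thus held less *Arid1a* RNA than every library labelled WT (-0.51 ± 0.07 on the log2 scale of cKO over WT, SE, FDR = 2.31e-05). The gene-level count does not separate transcripts with the floxed exons from those without. FDR here is the Benjamini-Hochberg adjusted p that edgeR's quasi-likelihood test gave over all genes tested. The fractions also differed in markers of other cells. All 15 spermatid markers were called higher in cKO, and their summed level went from 2246 to 2509 CPM in WT to between 10840 and 11140 CPM in cKO. Of 11 pachytene markers, 7 were lower and 3 higher, with a summed level of 7974 to 8644 CPM in WT and 5528 to 5601 CPM in cKO. The largest fall among them was that of *Piwil1*, from a mean of 1597 to 108.6 CPM. Sertoli markers were lower for 7 of 7 genes (429 to 488 CPM summed in WT, 124 to 129 CPM in cKO), and Leydig markers for 5 of 6 (56.6 to 60.3 CPM against 8.11 to 8.61 CPM). Macrophage markers were higher for 5 of 6, but at a low level (4.39 to 5.05 CPM in WT, 11.6 to 13.7 CPM in cKO). Spermatogonial markers were higher for 7 of 9 and lower for 1, while their sum stood at 180 to 186 CPM in WT and 162 to 170 CPM in cKO. The lower gene, *Id4*, went from a mean of 90.3 to 14.4 CPM, so that the sum fell although most of these markers rose. Leptotene and zygotene markers were higher for 4 of 7 and lower for 3 (199 to 235 CPM summed in WT, 234 to 244 CPM in cKO). That sum joins a fall of *Spo11* (mean 134.4 to 20.98 CPM) with a rise of *Rec8* (23.78 to 134.4 CPM). No gene of these 7 lists was at 0 counts in every library. The part of these shifts in the subunit results was not tested, and in bulk RNA fewer cells of a type and less RNA per cell cannot be told apart.

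All 7 subunit genes were called between genotypes. Called genes made up 74.0% of the 17643 genes tested, and 84.8% of those whose log2 CPM averaged 1 or more, so that a call alone does not set these genes apart. The direction split them: *Arid2*, *Pbrm1*, *Brd7*, *Phf10* and *Brd9* were lower in cKO, whereas *Bicra* and *Bicral* were higher. Among all genes tested, 37.5% were called lower and 36.5% called higher. Each of the 7 genes had CPM values that did not overlap between genotypes, as had 68.9% of genes tested (34.9% lower and 34.0% higher in cKO). The median log2 fold change was -0.60 over the 4 PBAF genes and 0.70 over the 3 non-canonical BAF genes, beside -0.02 over all genes tested. The second median is the value of *Bicral*, and *Brd9* stood at -0.69. The 3 non-canonical BAF genes summed to 100.3 to 129.7 CPM in WT and 96.45 to 106.4 CPM in cKO, so their sum did not rise. The 4 PBAF genes summed to 1037 to 1144 CPM in WT and 681.4 to 726.7 CPM in cKO. In absolute size the members were ordinary, with a median of 0.70 against 0.77 over all genes tested.

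**Figure D1:**
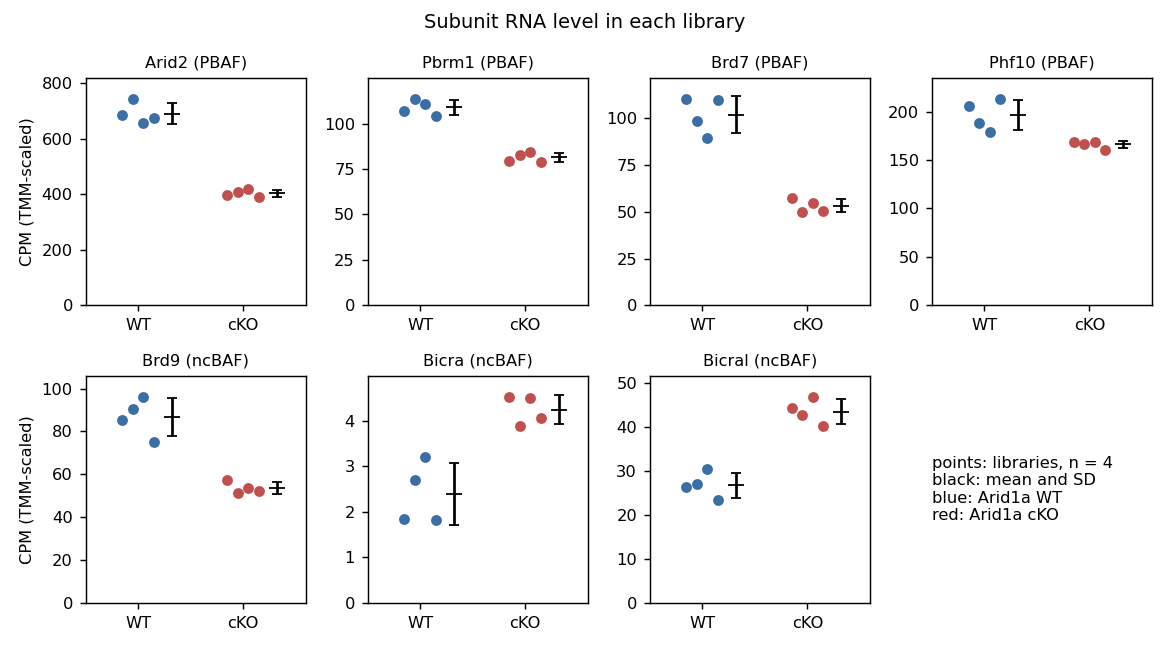
CPM (TMM-scaled, linear axis from 0) of the 7 subunit genes in each of the 4 *Arid1a* WT (blue) and 4 *Arid1a* cKO (red) libraries, with the mean and SD in black. The cKO points lie below all WT points for the 4 PBAF genes and *Brd9*, and above them for *Bicra* and *Bicral*.

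*Arid2* (Entrez gene 77044) encodes the ARID subunit that defines PBAF. In GRCm38.p6, the build of all positions given here, it spans 96287522 to 96405463 on chromosome 15. Its level was 688, 744, 658 and 675 CPM in the WT libraries and 399, 408, 419 and 391 CPM in the cKO libraries. The lowest WT library thus stood far above the highest cKO library. The mean fell from 691 ± 37.3 to 404 ± 12.2 CPM (SD, n = 4 in each genotype), which put the cKO to WT change at -0.77 ± 0.05 on the log2 scale (SE, FDR = 4.68e-09). It was the most abundant of the 7 genes in counts, with 6081 to 16262 per library. Of the genes whose log2 CPM averaged 1 or more, 24.2% had a lower log2 fold change.

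*Pbrm1* (Entrez gene 66923) encodes polybromo, a subunit with several bromodomains that bind acetylated histones, and gives PBAF its name. It lies on chromosome 14 from 31019138 to 31121592. It stood at 107, 114, 111 and 104 CPM in WT and at 79.5, 82.6, 84.1 and 79.0 CPM in cKO. Both groups were tight and far apart relative to their spread (109 ± 4.19 CPM and 81.3 ± 2.44 CPM, SD, n = 4). On the log2 scale the change was -0.42 ± 0.05 (SE, FDR = 1.46e-06). Limma on log2(TPM + 1), where TPM is a level per transcript length, gave -0.55, and -0.70 after TPM had been rescaled to the listed genes. Its exons overlap those of *Gnl3* on the opposite strand, and the strand setting of the counting is not given in the sources used here. Without strand, reads from the stretches that such pairs share cannot be told apart. Of the 31-base words of *Pbrm1* transcripts, 0.976% occur in any other gene. How many reads of *Gnl3* were counted for *Pbrm1* was not tested.

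*Brd7* (26992) encodes the bromodomain subunit of PBAF. It lies on chromosome 8 from 88329894 to 88362252. Its WT libraries held 110, 98.5, 89.4 and 110 CPM, and its cKO libraries held 57.6, 50.01, 54.9 and 50.7 CPM. The WT libraries were spread more widely than the cKO libraries, with replicate 3 lowest, and no values overlapped. Its mean fell by 47.7%, from 102 ± 10.001 to 53.3 ± 3.60 CPM (SD, n = 4 in each genotype), the deepest fall among the 7 genes by edgeR. On the log2 scale the change was -0.94 ± 0.07 (SE, FDR = 2.25e-08), and 19.4% of the genes whose log2 CPM averaged 1 or more had a lower one.

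*Phf10* (72057) encodes the PHD finger subunit of PBAF, the counterpart of the DPF proteins of canonical BAF. It lies on chromosome 17 from 14944994 to 14961260. Its level was 205, 189, 179 and 213 CPM in WT and 169, 166, 168 and 161 CPM in cKO. The lowest WT library and the highest cKO library were close, and the fall was the smallest of the 7 changes by edgeR. The mean fell from 196 ± 15.6 to 166 ± 3.68 CPM (SD, n = 4 in each genotype), which put the cKO to WT change at -0.24 ± 0.06 on the log2 scale (SE, FDR = 0.0015). Limma on log2(TPM + 1) gave -0.35, and -0.50 after TPM had been rescaled to the listed genes. Its transcripts share 7.24% of their 31-base words with *1600012H06Rik*, which overlaps it on the opposite strand and stood at 7.15 CPM in WT.

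*Brd9* (105246) encodes the bromodomain protein that defines non-canonical BAF. It lies on chromosome 13 from 73937801 to 73960895. It held 85.5, 90.5, 96.2 and 75.1 CPM in WT and 57.5, 51.3, 53.4 and 52.2 CPM in cKO. WT replicate 4 was lowest of its group and still well above every cKO library. The mean fell from 86.8 ± 8.94 to 53.6 ± 2.71 CPM (SD, n = 4 in each genotype), which put the cKO to WT change at -0.69 ± 0.07 on the log2 scale (SE, FDR = 5.15e-07). With offsets for average transcript length, the log2 fold change was -0.45 (FDR = 0.000196).

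*Bicral* (210982) and *Bicra* (243842) encode paralogous subunits that are found in non-canonical BAF and not in the other remodelers of the family. *Bicral* lies on chromosome 17 from 46798116 to 46890442. Its WT libraries held 26.3, 27.1, 30.3 and 23.4 CPM, and its cKO libraries held 44.4, 42.6, 46.9 and 40.2 CPM. Every cKO library was therefore above every WT library by a wide margin. The mean rose from 26.8 ± 2.87 to 43.5 ± 2.84 CPM (SD, n = 4 in each genotype), which put the cKO to WT change at 0.70 ± 0.08 on the log2 scale (SE, FDR = 9.90e-07). Its transcripts share 10.9% of their 31-base words with *Gm26904*, annotated as a long non-coding RNA that overlaps its exons on the opposite strand.

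*Bicra* lies on chromosome 7 from 15970671 to 16048146 and was the least abundant of the 7 genes, with 37 to 94 estimated counts per library. It stood at 1.83, 2.70, 3.21 and 1.82 CPM in WT and at 4.52, 3.88, 4.50 and 4.05 CPM in cKO. WT replicates 2 and 3 were higher than WT replicates 1 and 4, so that its spread was the largest of the members relative to the mean. The mean went from 2.39 ± 0.685 to 4.24 ± 0.321 CPM (SD, n = 4 in each genotype), which put the cKO to WT change at 0.83 ± 0.18 on the log2 scale (SE, FDR = 0.000764). With TPM in place of CPM, the highest WT library (0.899 TPM) lay above the lowest cKO library (0.849 TPM). *Gm38948* overlaps its exons on the opposite strand. On log2(TPM + 1), which understates changes of low genes, limma gave 0.27 (adjusted p = 0.03), and with TPM rescaled to the listed genes 0.23 (adjusted p = 0.0907).

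Promoter windows of genes that were lower in cKO are shown for their base composition. RefSeq windows of GRCm38.p6, from 250 bases before to 50 bases after the start, matched 4 of the 7 genes (*Pbrm1*, *Brd7*, *Phf10* and *Brd9*), and 3 had no entry (*Arid2*, *Bicra* and *Bicral*). They are *Pbrm1* at chr14:31018888-31019187 on the plus strand, *Brd7* at chr8:88362123-88362422 on the minus strand, *Phf10* at chr17:14961211-14961510 on the minus strand and the first of 2 starts of *Brd9* at chr13:73937561-73937860 on the plus strand. Each is written 5′ to 3′ along the gene's strand, and capitals mark the GC box letters GGGCGG or their reverse complement CCGCCC.
Pbrm1: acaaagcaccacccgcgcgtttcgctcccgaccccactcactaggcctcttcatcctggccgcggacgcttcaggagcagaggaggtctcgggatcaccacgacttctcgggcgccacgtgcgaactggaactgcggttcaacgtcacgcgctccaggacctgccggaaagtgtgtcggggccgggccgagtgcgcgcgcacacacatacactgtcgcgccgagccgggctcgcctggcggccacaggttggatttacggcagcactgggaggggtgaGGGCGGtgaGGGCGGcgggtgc
Brd7: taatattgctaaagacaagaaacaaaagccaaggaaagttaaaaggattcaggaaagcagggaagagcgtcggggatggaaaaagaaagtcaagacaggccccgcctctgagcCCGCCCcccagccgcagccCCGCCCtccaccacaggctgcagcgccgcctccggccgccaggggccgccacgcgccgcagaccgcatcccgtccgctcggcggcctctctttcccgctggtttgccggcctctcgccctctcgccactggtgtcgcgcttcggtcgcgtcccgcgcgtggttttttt
Phf10: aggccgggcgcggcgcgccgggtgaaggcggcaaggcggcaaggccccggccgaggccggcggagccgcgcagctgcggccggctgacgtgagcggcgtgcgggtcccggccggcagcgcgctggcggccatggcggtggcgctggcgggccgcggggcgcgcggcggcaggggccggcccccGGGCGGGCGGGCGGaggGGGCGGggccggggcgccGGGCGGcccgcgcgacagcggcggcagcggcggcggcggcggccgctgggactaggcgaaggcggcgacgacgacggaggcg
Brd9: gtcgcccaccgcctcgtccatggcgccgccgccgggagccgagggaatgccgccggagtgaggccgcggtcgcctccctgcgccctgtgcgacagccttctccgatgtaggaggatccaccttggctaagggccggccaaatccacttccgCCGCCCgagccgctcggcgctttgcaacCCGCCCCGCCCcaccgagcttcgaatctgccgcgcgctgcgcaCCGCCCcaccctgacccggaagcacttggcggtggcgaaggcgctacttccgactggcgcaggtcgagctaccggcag
All 4 windows were rich in GC (68.0% in *Pbrm1*, 64.0% in *Brd7*, 87.0% in *Phf10* and 72.0% in *Brd9*), beside a median of 52.7% over 32851 windows. CpG dinucleotides numbered 35, 31, 62 and 40 in the same order, where the median window held 7. The GC box letters, searched on both strands with overlaps counted, occurred 2 times in *Pbrm1*, 2 in *Brd7*, 5 in *Phf10* and 4 in *Brd9*, and 35.7% of all windows held them. The MYB core AACTG occurred 2 times in *Pbrm1* and was not among the letters of the other 3 windows (44.8% of all windows). The CRE half-site TGACG occurred once each in *Pbrm1* and *Phf10* (20.8% of all windows), and the ETS core CCGGAA once each in *Pbrm1* and *Brd9* (14.9% of all windows). CCAAT was in none of the 4 windows (37.4% of all windows), and the E-box CACGTG was in that of *Pbrm1* (7.15% of all windows). A match of letters is a description of the window. The background was not limited to expressed genes, and the members that rose, *Bicra* and *Bicral*, had no window. Whether these features differ between genes that fell and genes that rose was not tested.

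Levels of different genes were compared in TPM, because a count grows with transcript length. The listed genes took 78.1% to 81.1% of all TPM in WT and 88.1% to 88.6% in cKO, so a TPM level set between genotypes carries that difference. In WT the order was *Phf10* (181 ± 8.64 TPM, SD, n = 4), *Arid2* (139 ± 10.7), *Brd7* (82.4 ± 9.33), *Brd9* (60.8 ± 7.76), *Pbrm1* (28.2 ± 3.24), *Bicral* (8.35 ± 1.40) and *Bicra* (0.629 ± 0.227). No neighbours in this order overlapped in their 4 values. In cKO, *Phf10* (142 ± 2.84 TPM) and *Arid2* (74.6 ± 3.59 TPM) again led. *Brd9* (41.5 ± 2.65 TPM) and *Brd7* (39.9 ± 6.58 TPM) followed with overlapping values, then *Pbrm1* (18.9 ± 1.16 TPM), *Bicral* (14.7 ± 1.80 TPM) and *Bicra* (0.956 ± 0.0725 TPM). The step from *Pbrm1* down to *Bicral* narrowed from a ratio of 3.38 in WT to 1.28 in cKO, and that from *Bicral* down to *Bicra* stayed wide, at 13.3 and 15.4.

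**Figure D2:**
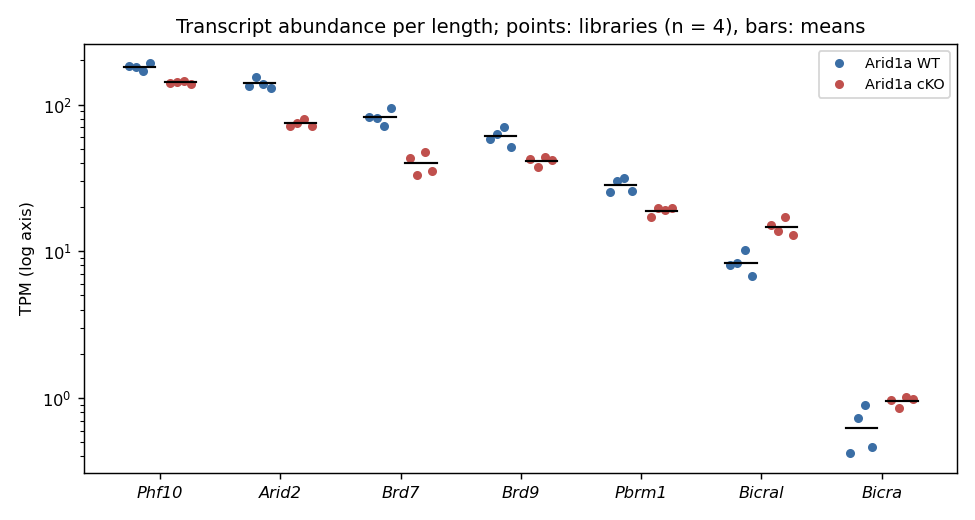
TPM (log axis) of the 7 genes, ordered by their WT mean, in each *Arid1a* WT (blue) and *Arid1a* cKO (red) library, with bars at the means. *Brd7* and *Brd9* are apart in WT and overlap in cKO, and *Bicra* is lowest in both genotypes.

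The balance of counterpart subunits was compared as a ratio of TPM within each library, which does not depend on the scaling between libraries. *Brd7* over *Brd9*, the bromodomain paralogs of PBAF and non-canonical BAF, was 1.41, 1.29, 1.02 and 1.83 in WT and 1.01, 0.883, 1.08 and 0.849 in cKO. WT replicate 3 fell inside the cKO range. The mean log2 ratio differed by -0.51 (two-sided exact permutation test over 70 assignments, p = 0.0571, and 0.0857 after Benjamini-Hochberg adjustment over 3 ratios). With CPM in place of TPM the difference was -0.24 (exact permutation, adjusted p = 0.257). *Arid2* over *Arid1a*, the ARID subunits of PBAF and canonical BAF, was 6.86, 5.93, 5.30 and 6.79 in WT and 4.89, 4.86, 4.86 and 4.57 in cKO. These values did not overlap, and the log2 difference was -0.37 (exact permutation p = 0.0286, the smallest that 4 against 4 allow, and 0.0857 after adjustment), so neither ratio passed the threshold after adjustment. In cKO the *Arid1a* level counts transcripts with and without the floxed exons. The study's RT-PCR found more of the excised than of the floxed product in cKO pachytene spermatocytes. The ratio of *Arid2* to intact *Arid1a* RNA was therefore not measured. *Bicra* over *Bicral* was 0.0523, 0.0875, 0.0881 and 0.0682 in WT and 0.0651, 0.0615, 0.0591 and 0.0760 in cKO. Its log2 difference of -0.15 was within the spread between libraries (exact permutation p = 0.457, and 0.457 after adjustment) and took the opposite sign in CPM.

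The average length of the transcripts that a gene uses is a readout that its count does not show. Estimated count over TPM gives that length up to a constant of the library, and it was set to 1 for the median gene of each library. Over 13958 genes, limma called 50.8% changed, 40.8% as longer and 10% as shorter in cKO. This split depended on the reference: the median change was 0.06 on the log2 scale, and with each library centred so that the typical gene did not change (a centring chosen after seeing the data), 3.9% were called longer and 12.1% shorter. *Brd9* and *Bicral* were shorter in cKO under both centrings. *Brd9* stood at 0.928, 0.976, 0.950 and 0.943 in WT and at 0.836, 0.860, 0.776 and 0.786 in cKO, with no overlap (-14.3%, log2 change -0.22, standard error 0.04, adjusted p = 0.00196 from limma). *Bicral* stood at 2.09, 2.20, 2.06 and 2.21 in WT and at 1.84, 1.95, 1.74 and 1.95 in cKO, also without overlap (-12.7%, log2 change -0.20, standard error 0.05, adjusted p = 0.00894 from limma). GENCODE M21 lists 12 transcripts of *Brd9*, 4 of them protein-coding and some with retained introns. It lists 4 of *Bicral*, among which the protein-coding *Bicral-201* and *Bicral-204* are 6575 and 3685 bases long. With the other centring the log2 changes of *Brd9* and *Bicral* were -0.28 and -0.25 (adjusted p = 0.00226 and 0.00897 from limma). The gene table does not say which of the listed transcripts were used.

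No other member kept a call under both centrings. Relative to the median gene of the library, *Arid2* was 3.5% longer in cKO (log2 change 0.05, standard error 0.01, adjusted p = 0.0189 from limma) and its values overlapped between genotypes. *Phf10* was 2.7% longer (log2 change 0.04, standard error 0.01, adjusted p = 0.0243 from limma), without overlap. These changes are below the 0.06 of the typical gene, and with the other centring they turned to -0.01 and -0.02 and were not called (adjusted p = 0.617 and 0.219). Both also lost the call with the replicate number as a block (adjusted p = 0.0674 and 0.071 from limma). They kept it with at least 50 counts in every library (adjusted p = 0.00818 and 0.00918 from limma). *Arid2* also lost it without WT replicate 2 (adjusted p = 0.0528), and *Phf10* without WT replicate 1 (0.055), cKO replicate 1 (0.0615) or cKO replicate 3 (0.0581). *Bicra* had a log2 change of 0.12 (standard error 0.05, adjusted p = 0.0804), which passed without WT replicate 1 (adjusted p = 0.0274) or without cKO replicate 4 (0.0205), and it was 0.06 with the other centring (adjusted p = 0.539). *Pbrm1* and *Brd7* had log2 changes of 0.08 and 0.05 with standard errors of 0.05 and 0.09 and did not pass (adjusted p = 0.242 and 0.689 from limma). *Brd7* turned to -0.01 with the other centring.

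**Figure D3:**
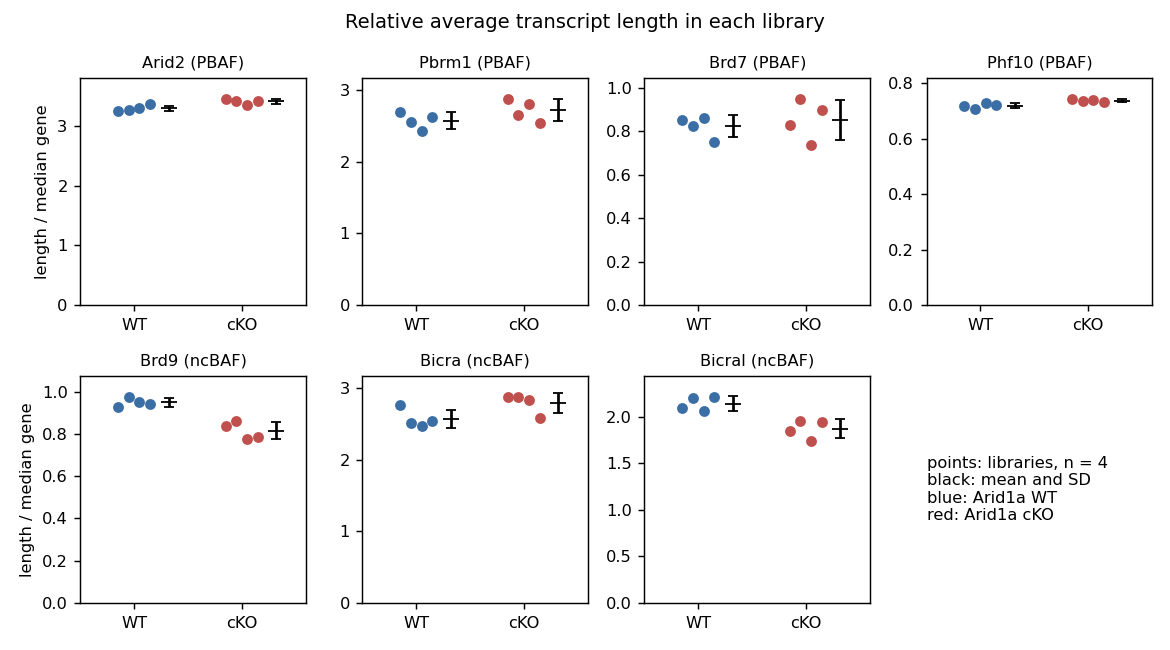
Average transcript length relative to the median gene of the same library (axis from 0) for the 7 genes in each *Arid1a* WT (blue) and *Arid1a* cKO (red) library, with the mean and SD in black. *Brd9* and *Bicral* lie lower in every cKO library than in any WT library.

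The remaining SWI/SNF genes give the setting of these changes. Of 15 subunit genes that PBAF or non-canonical BAF share with other remodelers of the family, 7 were called lower, 5 higher and 3 were not called, with a median log2 fold change of -0.04. *Bcl7b*, one of 3 genes of the BCL7 family, had the largest fall (-1.81 ± 0.06 on the log2 scale, SE, FDR = 2.17e-12), and its paralog *Bcl7c* the largest rise (1.09 ± 0.06, FDR = 2.17e-10). *Smarca4*, which encodes the ATPase BRG1, fell from 458 ± 26.0 to 183 ± 5.66 CPM (SD, n = 4 in each genotype), or -1.33 on the log2 scale (FDR = 1.20e-11), while *Smarca2*, which encodes BRM, was at 477 ± 25.1 and 463 ± 12.4 CPM and was not called (FDR = 0.478). *Smarca4* and *Smarca2*, like *Arid1b*, were singled out after their values were seen.

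Of the 7 genes on the canonical BAF list, 1 was called lower (*Arid1a* itself), 2 higher and 4 were not called. *Dpf3*, a counterpart of *Phf10*, rose most (2.49 ± 0.07 on the log2 scale, SE, FDR = 1.75e-13), from 10.2 ± 0.948 to 57.3 ± 1.14 CPM (SD, n = 4 in each genotype). *Arid1b*, the paralog of *Arid1a*, was the other gene that rose (0.66 ± 0.12, FDR = 0.000168). All 4 PBAF genes were called lower, as were 7 of the 15 shared genes and 37.5% of all genes tested. *Brd9* moved in the opposite direction to *Bicra* and *Bicral*. Whether the lists differ was not tested.

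**Figure D4:**
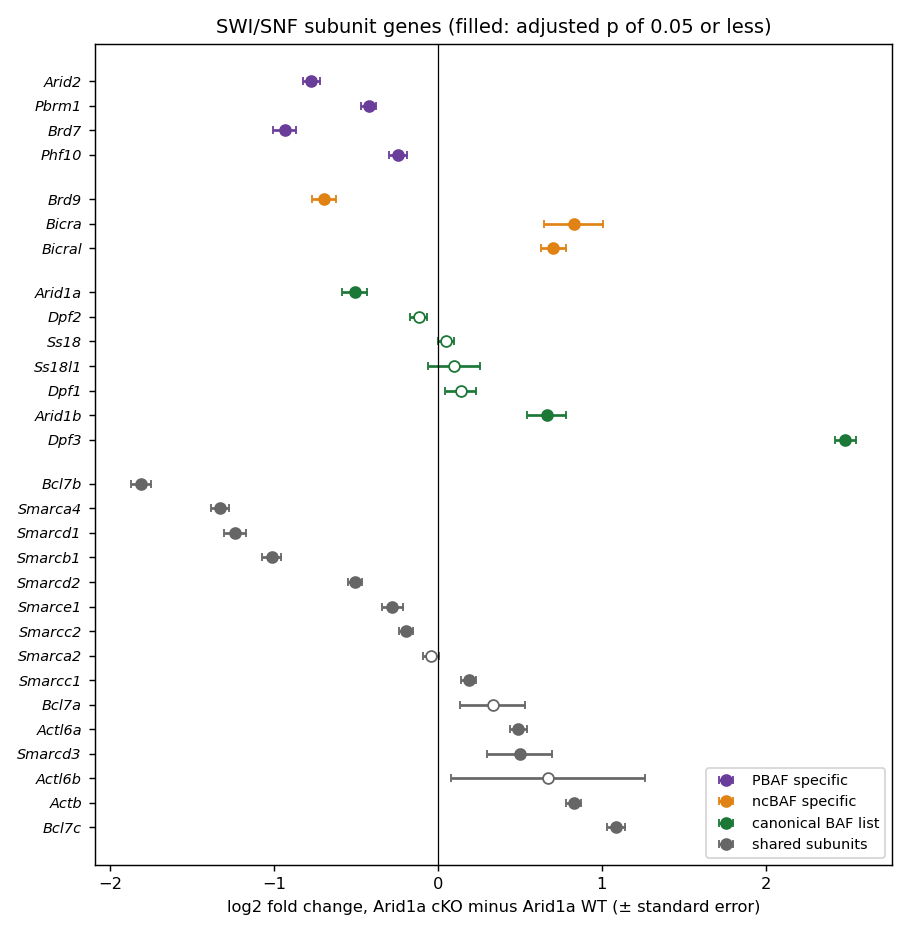
Log2 fold change (*Arid1a* cKO minus *Arid1a* WT, bars for the standard error) of PBAF specific, non-canonical BAF specific (ncBAF), canonical BAF and shared subunit genes. Filled points had an adjusted p of 0.05 or less, and the 4 PBAF genes all lie left of 0 while shared subunits lie on both sides, from -1.81 for *Bcl7b* to 1.09 for *Bcl7c*.

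Genes with a pattern most like that of *Pbrm1* and of *Brd9*, the only members compared in this way, were found by the root mean square difference of log2 CPM over the 8 libraries, after each of 12997 genes that averaged a log2 CPM of 1 or more had been centred on its own mean. Nearest to *Pbrm1* were *Slx4* (0.03), *Atf7ip* (0.03) and *Rusc2* (0.03). Nearest to *Brd9* were *E2f6* (0.04), *Zfp410* (0.04) and *Cdc73* (0.05). The other subunit genes were not among the closest. Among them *Phf10* came nearest to *Pbrm1*, at rank 1459 of 12996, followed by *Brd9* at rank 1980. For *Brd9* it was *Arid2*, at rank 360, followed by *Pbrm1* at rank 1063. The log2 fold changes of the genes named were -0.42, -0.41 and -0.46 beside -0.42 for *Pbrm1*, and -0.67, -0.66 and -0.73 beside -0.69 for *Brd9*. This closeness follows from how the genes were picked, by likeness over the same 8 libraries.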

How the data were processed

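RNA-seq of 4 *Arid1a* WT and 4 *Arid1a* cKO samples was analysed, with groups and replicate numbers from the sample titles. Reads had been quantified by the authors with Salmon on mm10, and tximport had collapsed transcripts to Entrez genes. They deposited estimated counts, scaled neither for depth nor for length, and TPM. Their deposited DESeq2 table (fold changes and p-values) was not used.

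Rows were matched to RefSeq GRCm38.p6 symbols (21036 of 21058). Estimated counts were rounded to whole numbers, as had been planned for counts that were not whole. For genes with 10 or more counts summed over all libraries, genotype was the only term of a quasi-likelihood fit (edgeR 4.0.16, R 4.3.3, TMM, glmQLFit and glmQLFTest). A gene was called at an FDR (Benjamini-Hochberg, over all genes tested) of at most 0.05. Standard errors were the log2 fold change over the square root of F. Relative transcript length (genes with at least 10 counts in every library) was tested with limma 3.58.1, and ratios by exact permutation. On simulated counts edgeR recovered 98% of genes changed 2-fold, with 4.39% of its calls false (17542 genes). The length test recovered 68% of genes changed 1.23-fold, with 6.85% of its calls false (13958 genes). Each simulation changed only 200 genes, and the count simulation gave all genes a common dispersion. In the data themselves, edgeR called 74.0% of genes and the length test 50.8%. The simulated rates therefore do not carry over to the calls reported here.

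Named genes were the members, *Arid1a*, the called genes of each SWI/SNF list with the largest rise and fall, and the 3 nearest genes to *Pbrm1* and *Brd9*. *Smarca4*, *Smarca2* and *Arid1b*, and genes that overlap a member, were named outside this rule. So were the cell type markers named beside a summed level, after their values were seen. Members and lists were chosen with earlier results of these data known. Alternatives were DESeq2 1.42.0, other scalings and filters, length offsets, limma on log2(TPM + 1) and log2(TPM + 0.1), a stricter threshold, the replicate block and each library left out. Figures used Python 3.11.15 and matplotlib 3.10.9.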

Additional observations from a re-analysis of the deposited data

Results flagged for a closer look

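In 36 groups of 4 libraries (levels, relative transcript lengths and ratios), 2 held a library far from the other 3 by Dixon's test, where chance gives about 1.8. The relative transcript length of *Bicra* in *Arid1a* cKO replicate 4 was low, at 2.58 against 2.84 to 2.88 (gap over range 0.858). The log2 ratio of *Arid2* over *Arid1a* in *Arid1a* cKO replicate 4 was low, at 2.19 against 2.28 to 2.29 (gap over range 0.9).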

How the results depend on the processing

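All 7 genes kept their direction in each of 20 alternatives, and 6 kept their call in all of them. The exception was *Bicra*, at 0.23 (adjusted p = 0.0907) with limma after rescaling TPM to the listed genes, an alternative chosen after seeing the data. Log2 fold changes ranged from -1.04 to -0.74 for *Arid2*, -0.70 to -0.39 for *Pbrm1*, -1.19 to -0.88 for *Brd7*, -0.50 to -0.19 for *Phf10*, -0.80 to -0.45 for *Brd9*, 0.23 to 1.00 for *Bicra* and 0.60 to 0.92 for *Bicral*. As reported, the median of all genes was -0.02 with 49.3% of calls higher, and library size without TMM gave -0.12 with 44.9%. Limma on log2(TPM + 1) gave a median of -0.05 with 45.4% of calls higher, and the same fit on rescaled TPM gave -0.13 with 38.9%. Nothing in the labels ties same-numbered samples to each other, and their deviations correlated at -0.137 to 0.162. With the replicate number as a block, 7 members were still called. The count of members with changed transcript length was 4 as reported, 2 with the replicate block, 2 at an adjusted p of 0.01 and 2 with the other centring (chosen after seeing the data), each time *Brd9* and *Bicral*. That centring turned the length changes of *Arid2*, *Brd7* and *Phf10* to -0.01, -0.013 and -0.022, and lowered the share of longer among length calls from 80.3% to 24.4%. It was 3 to 5 when single libraries were dropped. The length change of *Brd7* was between -0.007 and 0.115 when single libraries were dropped, below 0 without *Arid1a* cKO replicate 2, and the cause was not tested. For *Bicra* over *Bicral*, the log2 difference turned to 0.16 in CPM, where transcript length is not divided out. Without *Arid1a* WT replicate 3, *Brd7* over *Brd9* and *Arid2* over *Arid1a* passed after adjustment, at -0.65 and -0.44 (exact permutation, adjusted p = 0.0429 for each). *Arid2* over *Arid1a* already had the smallest possible exact p with all libraries. Its adjusted p therefore fell through that of *Brd7* over *Brd9*, and its pass says nothing more about its own difference. When single libraries were dropped, these log2 differences ranged from -0.65 to -0.37, from -0.31 to -0.06 and from -0.44 to -0.32 for *Brd7* over *Brd9*, *Bicra* over *Bicral* and *Arid2* over *Arid1a*. Depth limits *Bicra* most, with 37 to 94 counts per library.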
